A study of Mus musculus with 4 samples.

Results

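Homing and adhesion receptors are the surface proteins with which blood stem and progenitor cells find the marrow and stay in it. The 8 receptor genes described here were taken by symbol: Cxcr4, Robo4, Itga4, Itgb1, Itga6, Itgal, Cd44 and Selplg. All 8 were among the 31053 genes of the count matrices and all passed the minimum of 100 UMIs over both KLS libraries, as did 12074 genes in all. A UMI is a molecular tag that counts 1 captured RNA molecule, and a level is given as CPM, the UMIs of a gene per 1000000 UMIs summed over the cells named.

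The samples were 4 single-cell libraries of mouse bone marrow from femurs and tibias, 1 for each combination of 2 sorted populations and 2 genotypes. KLS cells are lineage-depleted, c-Kit+ Sca-1+ cells, a mixture of stem cells and early progenitors, taken at 8 to 12 weeks of age. Control KLS cells came from mice labelled Vav1-Cre/+STAT5ab+/+ and STAT5 KO cells from mice labelled Vav1-Cre/+STAT5abfl/fl, so both genotypes carried the Cre. The labels give 4 mice but do not say whether per genotype. The Vav1 promoter drives Cre mainly in blood-forming cells. The MSC libraries held CD45-depleted marrow cells sorted as Sca-1+ CD140a+ and without the red cell marker CD71, from mice of 6 to 8 weeks labelled with the same 2 genotypes. With 1 library per group there is no replicate, so no test was made. Intervals are 95% intervals that cover counting error only, and a member counts as higher or lower when its STAT5 KO level is over 25% above or over 20% below control and its interval excludes equal levels. This is the call threshold below.

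CXCR4 is the receptor for the chemokine CXCL12, which marrow stromal cells secrete and which holds progenitors in the niche. ROBO4 is a roundabout receptor of stem cells and endothelium, a family whose other members bind SLIT proteins. The integrins pair an alpha with a beta chain: alpha-4 with beta-1 binds VCAM1 and fibronectin, alpha-6 binds laminins, and alpha-L (with beta-2, as LFA-1) binds ICAMs. CD44 binds hyaluronan, and PSGL-1, the product of Selplg, binds selectins during rolling on vessel walls. STAT5A and STAT5B are transcription factors activated by cytokine receptors.

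The deleted genes were checked first. Control KLS cells held 68.5 CPM of Stat5a against 6.74 CPM in STAT5 KO cells, and 60.8 against 4.49 CPM of Stat5b. Stromal cells of the MSC libraries held 46.2 and 62.1 CPM of Stat5a and 56.7 and 50.6 CPM of Stat5b, with overlapping intervals. The stromal cells labelled STAT5 KO thus had Stat5 transcripts at levels near control. After filters, 3085 control and 6726 STAT5 KO KLS cells were kept, with medians of 15136 and 10085 UMIs, and 577 and 374 cells of the MSC libraries, with medians of 2732 and 2496. The libraries shared barcodes, 290 between the KLS libraries alone, and a barcode with more UMIs in another library was left out. Ptprc, the gene of the blood cell marker CD45, was at 153 and 154 CPM in KLS cells and had 0 UMIs in stromal cells. In control and STAT5 KO KLS cells, 7 stromal markers summed to 1.27 and 1.69 CPM, 3 T cell markers to 0.43 and 0.34 CPM, and 5 granulocyte markers to 4.52 and 4.06 CPM, with Ly6g at 0. Larger sums were those of 4 B cell markers (34.8 and 27.5 CPM), 3 plasma cell markers (21.5 and 30.5 CPM, with Jchain at 8.82 and 22.8) and 4 red cell markers (41.0 and 69.3 CPM). Their part in the member ratios was not tested.

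KLS cells were divided by lineage genes that include no member. A cell with 2 or more Dntt UMIs was in the lymphoid gate, and one with 2 or more Pf4 UMIs in the megakaryocyte gate. The erythroid gate required a UMI of both Klf1 and Gata1, and the myeloid gate at least 0.5% of UMIs from the granule genes Mpo, Elane, Prtn3 and Ctsg. Cells with a UMI of each of Hlf, Mecom and Procr and no lineage gate were the stem triad gate, and the rest were the multipotent gate. Control and STAT5 KO cells numbered 367 and 293 in the stem triad gate, 1317 and 3128 in the multipotent gate, 1108 and 2553 in the lymphoid gate, 45 and 273 in the myeloid gate, 150 and 250 in the megakaryocyte gate, and 43 and 120 in the erythroid gate. Cells in more than 1 gate (55 and 109) were set apart. Every check marker of the 4 lineage gates was highest in its own gate in both libraries. In the stem triad gate 3 of 6 check markers were highest in control and 5 of 6 in STAT5 KO, the others being higher in the megakaryocyte gate. The 2 control gates under 50 cells, myeloid and erythroid, carry the widest intervals below.

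The promoter of Cxcr4 is shown because TTCNNNGAA, the letters that STAT5 dimers prefer, was searched there. RefSeq promoter entries (build GRCm38.p6) were found for 5 of the 8 members: Cxcr4, Robo4, Itga4, Itgb1 and Cd44. Itga6, Selplg and Itgal had none. TTCNNNGAA, which is its own reverse complement, was in 0 of these 5 over the 250 bases before the start, and in 7.02% of all 32851 promoters. These letters are thus not in these 5 windows, which says nothing of STAT5 binding. The Cxcr4 stretch is on the minus strand at chr1:128592300-128592549, with capitals marking TATAAA, which begins 30 bases before the start.
Cxcr4: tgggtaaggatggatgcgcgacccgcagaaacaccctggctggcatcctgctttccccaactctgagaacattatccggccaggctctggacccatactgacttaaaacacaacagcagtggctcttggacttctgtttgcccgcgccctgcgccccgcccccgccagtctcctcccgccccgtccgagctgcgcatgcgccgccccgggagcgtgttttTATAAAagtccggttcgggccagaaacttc
TATAAA on either strand was in 12.4% of all promoters and, among the 5 entries, in this one. For Robo4, the member with the lowest ratio below, a stretch of 30 bases on the plus strand at chr9:37401924-37401953 is shown, with capitals marking GGAA or its reverse complement TTCC, the core letters bound by ETS factors. It lies before the RefSeq start but inside the gene as GENCODE places it, since the GENCODE start is further upstream.
Robo4: GGAAgcatccgtTTCCtcaaagctgcTTCC
The GGAA letters on either strand were in 93.4% of all promoters of this length, so few promoters lack them.

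In all KLS cells together, Robo4 was lower and Itgal higher without STAT5, and the other 6 members did not pass the call threshold. By the same rule 7.09% of the 12074 genes were higher and 12.5% lower, so 1 higher and 1 lower of 8 is close to the share of all genes. At a stricter 1.5-fold, 0 members were higher and 1, Robo4, was lower, where 2.05% of all genes were higher and 5.15% lower. The single ratios follow, ordered by the receptors' roles.

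The chemokine receptor gene Cxcr4 (chr1:128588199-128592293, minus strand, GRCm38 as for the other genes) had a level of 80.7 CPM in control cells against 95.9 CPM in STAT5 KO cells, with 4125 and 7328 UMIs. The STAT5 KO level was 1.19-fold of control (1.14 to 1.24), higher beyond counting error. By gate, control and STAT5 KO levels were 69.1 and 74.5 CPM in the stem triad gate, 72.8 and 85.3 in the multipotent gate, 98.1 and 114 in the lymphoid gate, 106 and 118 in the myeloid gate, 60.5 and 60.2 in the megakaryocyte gate, and 30.2 and 30.2 in the erythroid gate. The order of gates was the same in both libraries, from myeloid and lymphoid at the top, whose levels did not differ beyond counting error, to erythroid at the bottom. The span from myeloid to erythroid was 3.49-fold in control and 3.90-fold in STAT5 KO, larger than the genotype ratio in any of these 6 gates. The ratio passed the call threshold in 0 gates, and it was above 1 beyond counting error in the multipotent (log2 0.23) and lymphoid (log2 0.22) gates.

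The ratio of Cxcr4 moved with the depth of the cells compared. Among cells with 8000 to 16000 UMIs, 1159 control and 2980 STAT5 KO cells, the levels were 67.8 and 102 CPM, a log2 ratio of 0.59 (0.48 to 0.70). Cxcr4 thus passed the call threshold in these cells and not in all cells. Among cells of 4000 to 8000 UMIs the levels were 44.0 and 61.0 CPM (log2 0.47, 0.21 to 0.74), also past the call threshold. The share of all genes called in that range was not computed. Among cells of 16000 to 32000 UMIs the levels were 91.4 and 108 CPM (log2 0.24), and among deeper cells 81.2 and 88.8 CPM. STAT5 KO was the higher library in each of these ranges, with the interval including no difference in the deepest. In both libraries the level was lowest in the shallowest of these cells, and STAT5 KO cells were shallower. Among the cells of 8000 to 16000 UMIs 13.9% of 10951 genes were higher by the same rule and 16.6% lower, and of the members Cxcr4 and Itgal were higher and Robo4 lower. The part of depth in the Cxcr4 ratio was not tested. The same restriction gave log2 0.59 in the multipotent gate and 0.59 in the lymphoid gate.

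**Figure D1:**
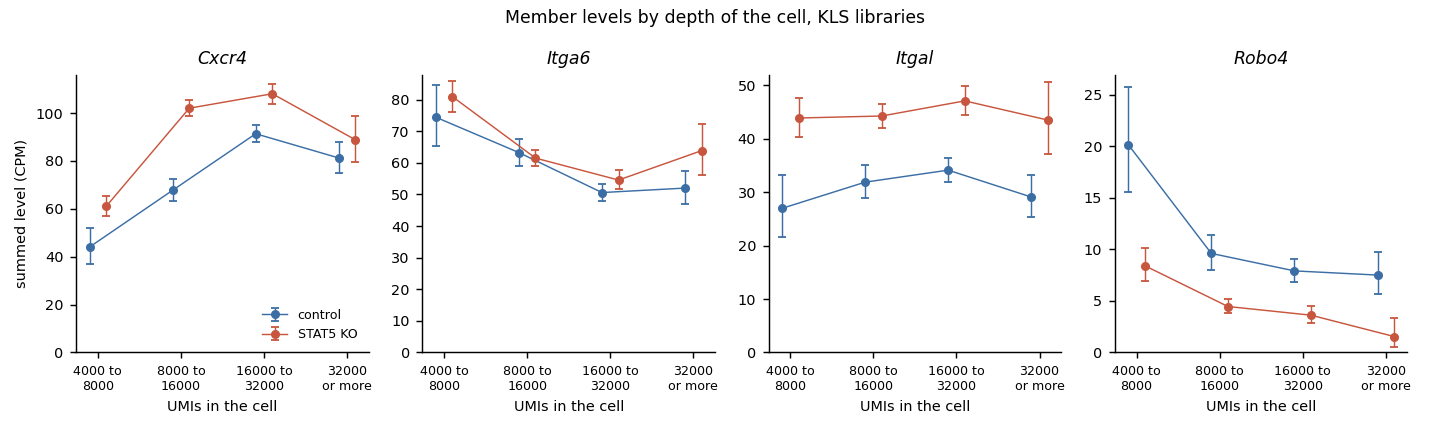
Summed level (CPM, vertical axis) of 4 members in control (blue) and STAT5 KO (red) KLS cells, by the number of UMIs in the cell (horizontal axis). Bars are 95% counting intervals. Cxcr4 goes up from 44.0 to 91.4 CPM across the first 3 ranges in control, Itgal is higher and Robo4 lower in STAT5 KO in all 4 ranges, and Itga6 levels of the 2 libraries lie close at 8000 to 16000 UMIs.

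Robo4 (chr9:37401897-37415115, plus strand) had 464 UMIs in control, a level of 9.07 CPM (8.27 to 9.94), and 365 UMIs in STAT5 KO, a level of 4.78 CPM (4.30 to 5.29). The control level was 1.90-fold that of STAT5 KO, a log2 ratio of -0.93 (-1.13 to -0.72). By gate the levels were 17.3 and 13.0 CPM in the stem triad gate, 8.19 and 5.57 in the multipotent gate, 8.93 and 4.32 in the lymphoid gate, and 6.56 and 2.33 in the megakaryocyte gate. The stem triad gate was the highest in both libraries, beyond counting error from the next gate. The myeloid and erythroid gates held 1 to 5 Robo4 UMIs per library, too few for a comparison. Robo4 was lower past the call threshold in the multipotent (log2 -0.56), lymphoid (log2 -1.05) and megakaryocyte (log2 -1.49, from 18 and 7 UMIs) gates. In the stem triad gate its ratio (log2 -0.41, -0.97 to 0.13) was within counting error. Over all settings tried that ratio ranged from -1.80 to -0.22. With the stem gate read on Hlf and Mecom without Procr, a setting added after the data were seen, the stem ratio was -0.83 (-1.20 to -0.48) and the multipotent ratio -0.06 (-0.55 to 0.44), so which of these 2 gates passed depended on how the stem gate was read. With the gate read on the triad, the lymphoid ratio differed from the stem triad ratio by 0.64 (0.02 to 1.251) on the log2 scale. That interval ends close to 0, and the difference was computed for the triad reading only.

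Robo4 was the lower in STAT5 KO at each depth, with 20.2 and 8.41 CPM among cells of 4000 to 8000 UMIs, 9.60 and 4.46 CPM at 8000 to 16000 UMIs, and 7.91 and 3.61 CPM at 16000 to 32000 UMIs. Weighting the STAT5 KO gates to the gate shares of control gave a log2 ratio of -0.74. Since endothelial cells also express Robo4, other endothelial genes were read beside it. Of 6 such markers, Cdh5 was at 0.039 and 0.065 CPM, Kdr at 0.96 and 0.82, and Plvap at 1.56 and 1.69, while Emcn, Tie1 and Egfl7, which stem cells also express, were at 21.7 and 8.23, 30.5 and 19.7, and 184 and 186 CPM. Cdh5, the cadherin that defines endothelium, was thus near 0 in both KLS libraries, while Emcn and Tie1 were lower in STAT5 KO, as Robo4 was. The part of endothelial cells in the Robo4 ratio was not tested.

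Itga4 (chr2:79255426-79333123, plus strand), the alpha-4 chain, had levels of 119.6 and 124 CPM in control and STAT5 KO. The ratio of 1.03-fold (1.00 to 1.07) was within counting error. Over the gates, Itga4 levels were 121 and 117 CPM in the stem triad gate, 115 and 122 in the multipotent gate, 124 and 123 in the lymphoid gate, 91.9 and 97.0 in the myeloid gate, 94.7 and 121 in the megakaryocyte gate, and 166 and 200.5 in the erythroid gate. The erythroid gate was the highest in both libraries, the reverse of Cxcr4. Of the 6 gates, Itga4 was higher past the call threshold in the megakaryocyte gate (log2 0.35, 0.12 to 0.58), and that ratio differed beyond counting error from those of the stem triad, multipotent and lymphoid gates. Itga4 overlaps Cerkl on the other strand, which had 188 and 280 UMIs.

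Itgb1 (chr8:128685654-128733200, plus strand), the beta-1 chain shared by alpha-4 and alpha-6, was at 109.9 and 119.9 CPM. The STAT5 KO level was 1.09-fold of control (1.06 to 1.13), small and higher beyond counting error. Itgb1 levels by gate were 112 and 122 CPM in the stem triad gate, 117 and 127 in the multipotent gate, 95.8 and 105 in the lymphoid gate, 105 and 123 in the myeloid gate, 150.1 and 171 in the megakaryocyte gate, and 115 and 131 in the erythroid gate. The ratio was above 1 in all 6 gates (log2 0.12 to 0.24) and past the call threshold in 0. It was beyond counting error in the multipotent and lymphoid gates only. Over all settings tried it reached as low as log2 -0.23 in the stem triad gate and -0.27 in the erythroid gate. The megakaryocyte gate was the highest in both libraries, and the genotype ratios of the 15 pairs of gates did not differ beyond counting error in any pair.

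Itga6 (chr2:71745616-71858416, plus strand), the alpha-6 chain, was at 55.6 and 63.1 CPM, a ratio of 1.13-fold (1.08 to 1.19). Itga6 levels by gate were 80.3 and 112 CPM in the stem triad gate, 66.5 and 76.2 in the multipotent gate, 34.3 and 39.5 in the lymphoid gate, 45.1 and 50.6 in the myeloid gate, 91.1 and 150.3 in the megakaryocyte gate, and 34.3 and 42.0 in the erythroid gate. Itga6 was higher past the call threshold in the stem triad gate (log2 0.48, 0.28 to 0.69) and in the megakaryocyte gate (log2 0.72, 0.50 to 0.95). Both ratios differed beyond counting error from those of the multipotent and lymphoid gates. These 2 gates also had the highest Itga6 levels in both libraries. Among cells of 8000 to 16000 UMIs the ratio over all gates was log2 -0.04 (-0.16 to 0.08), and that of the stem triad gate was 0.16 (-0.18 to 0.50), both within counting error. With the stem gate read on Hlf and Mecom the stem ratio was 0.30 (0.19 to 0.42), just under the call threshold. The megakaryocyte ratio ranged from 0.59 to 0.79 over all settings tried.

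The cells of the stem triad and megakaryocyte gates also differed between libraries in other genes. Slamf1, a stem cell surface marker, had 12.5 CPM in the stem triad gate of the control library and 31.3 CPM in that of the STAT5 KO library. Vwf, a gene of platelet-biased stem cells and megakaryocytes, was at 11.4 and 92.1 CPM in that gate and at 44.1 and 110.7 CPM in the megakaryocyte gate. Stat5a and Stat5b together were at 147.6 and 39.4 CPM in the stem triad gate, 26.7% of control, against 2.11% in the lymphoid gate. Their part in the member ratios was not tested.

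Itgal (chr7:127296260-127335138, plus strand), the alpha-L chain of LFA-1, had 1655 UMIs in control, a level of 32.4 CPM (30.8 to 34.0), and 3443 UMIs in STAT5 KO, a level of 45.1 CPM (43.6 to 46.6). The STAT5 KO level was 1.39-fold of control (1.31 to 1.48). Itgal levels by gate were 14.7 and 29.2 CPM in the stem triad gate, 26.1 and 40.6 in the multipotent gate, 48.4 and 54.1 in the lymphoid gate, 35.7 and 54.8 in the myeloid gate, 9.84 and 19.6 in the megakaryocyte gate, and 13.1 and 16.1 in the erythroid gate. Itgal was higher past the call threshold in 4 of 6 gates. The log2 ratio was 0.98 in the stem triad gate (0.54 to 1.43), 0.64 in the multipotent gate (0.48 to 0.79), 1.00 in the megakaryocyte gate (0.32 to 1.71) and 0.62 in the myeloid gate (0.14 to 1.12). In the lymphoid gate, the highest in control, it was 0.16 (0.05 to 0.28). The stem triad ratio was larger than the lymphoid ratio by 0.82 (0.38 to 1.27), and the multipotent ratio by 0.47 (0.29 to 0.66), both beyond counting error.

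The highest gate was 4.92-fold above the lowest in control (lymphoid over megakaryocyte) and 3.40-fold in STAT5 KO (myeloid over erythroid). Itgal was higher in STAT5 KO at each depth, where the log2 ratio was 0.70, 0.47, 0.46 and 0.58 over the 4 ranges of depth from 4000 UMIs upward. With the stem gate read on Hlf and Mecom the multipotent ratio was 0.46 (0.26 to 0.66), still higher. Itgb2, the beta chain that pairs with alpha-L, had levels of 11.7 and 10.6 CPM, within counting error (log2 -0.14, -0.30 to 0.01).

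Cd44 (chr2:102811141-102901665, minus strand) had levels of 131 and 137 CPM, a ratio of 1.05-fold (1.02 to 1.08). By gate the levels were 116 and 125 CPM in the stem triad gate, 117 and 124 in the multipotent gate, 160.0 and 160.1 in the lymphoid gate, 94.5 and 119 in the myeloid gate, 86.0 and 93.1 in the megakaryocyte gate, and 95.6 and 113 in the erythroid gate. The lymphoid gate was the highest in both libraries and its levels were alike (log2 0.00, -0.06 to 0.07). In the myeloid gate, with 45 control cells, Cd44 was higher past the call threshold (log2 0.33, 0.03 to 0.64).

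Selplg (chr5:113818536-113832644, minus strand) had levels of 149 and 126 CPM in control and STAT5 KO. The control level was 1.18-fold that of STAT5 KO, lower without STAT5 beyond counting error. By gate the levels were 121 and 105 CPM in the stem triad gate, 135 and 120.3 in the multipotent gate, 179 and 141 in the lymphoid gate, 179 and 142 in the myeloid gate, 109 and 71.5 in the megakaryocyte gate, and 63.7 and 57.8 in the erythroid gate. Selplg was the one member below control in all 6 gates. It was lower past the call threshold in the lymphoid (log2 -0.34), myeloid (-0.33) and megakaryocyte (-0.60) gates. The lymphoid ratio was further below control than the multipotent ratio by 0.17 (0.08 to 0.27) on the log2 scale.

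**Figure D2:**
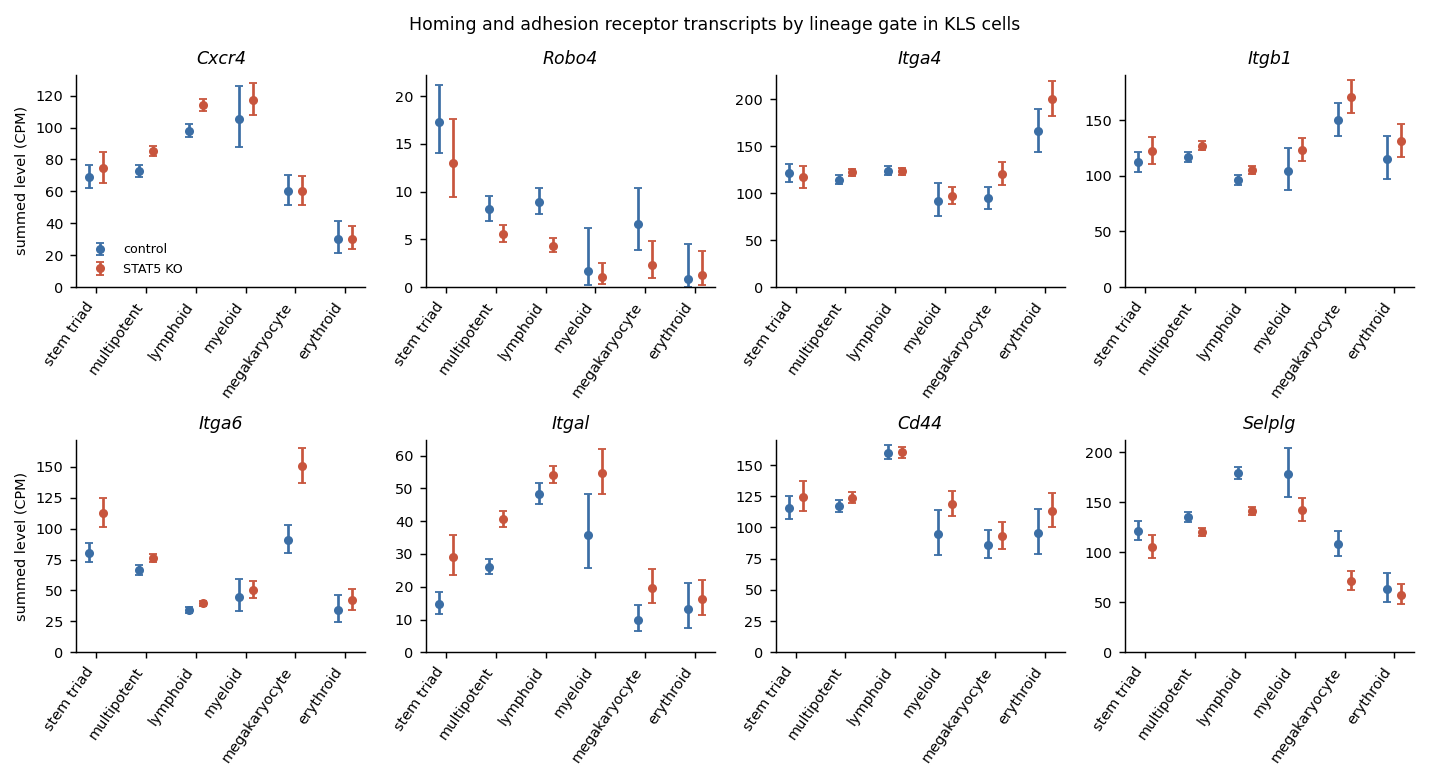
Summed level (CPM, vertical axis, from 0) of each member in 6 lineage gates of control (blue) and STAT5 KO (red) KLS cells, 1 library per group, with 95% counting intervals. Itgal lies higher in STAT5 KO in the stem triad, multipotent, myeloid and megakaryocyte gates, Itga6 in the stem triad and megakaryocyte gates, and Selplg lies lower in the lymphoid, myeloid and megakaryocyte gates.

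Over the 48 pairs of member and gate, 8 were higher and 6 lower in STAT5 KO. The same rule called 7.41% of 65733 gene and gate pairs with at least 20 UMIs higher and 7.32% lower. These shares, and those by gate, were not matched to the UMI counts of the members. By gene, the higher pairs were 4 of Itgal, 2 of Itga6 and 1 each of Itga4 and Cd44, and the lower pairs were 3 each of Selplg and Robo4. The stem triad gate had 2 higher and 0 lower, against 6.73% and 6.09% of its genes. The multipotent gate had 1 and 1 (7.16% and 8.7%), the lymphoid gate 0 and 2 (7.25% and 10.9%), and the myeloid gate 2 and 1 (8.42% and 5%). The megakaryocyte gate had 3 higher and 2 lower of 8 (8.86% and 7.85%), and the erythroid gate 0 and 0 (6.09% and 3.81%). Pairs of 1 gene share their libraries and are not independent.

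**Figure D3:**
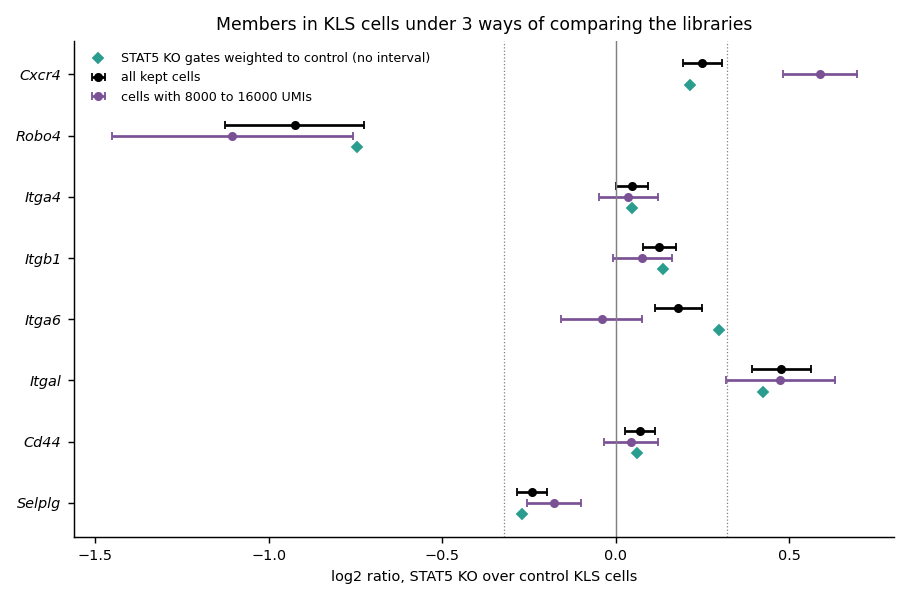
Log2 ratio of STAT5 KO over control KLS cells (horizontal axis) for each member in all kept cells (black), in cells with 8000 to 16000 UMIs (purple) and with STAT5 KO gates weighted to the control gate shares (green diamonds, no interval). Bars are 95% counting intervals and dotted lines mark the call threshold. Robo4 lies left and Itgal right of the dotted lines in all 3, and Cxcr4 passes the right line in cells of matched depth.

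The share of cells with at least 1 UMI of a member was read after thinning each cell to 4000 UMIs, which left 3061 control and 6437 STAT5 KO cells and set aside 24 and 289 shallower ones. Cells with a Cxcr4 UMI were 24.0% of control (22.5% to 25.6%) and 28.7% of STAT5 KO (27.6% to 29.9%), and cells with an Itgal UMI 10.8% (9.73% to 12.0%) and 15.7% (14.8% to 16.6%). Cells with a Robo4 UMI were 4.02% (3.35% to 4.78%) and 2.11% (1.78% to 2.49%), and with a Selplg UMI 43.1% (41.3% to 44.9%) and 39.4% (38.2% to 40.6%). For these 4 members the intervals lay apart, Cxcr4 and Itgal being higher and Robo4 and Selplg lower in STAT5 KO. Thinned to 2000 UMIs, the Cxcr4 shares were 13.7% (12.5% to 15.0%) and 15.6% (14.7% to 16.5%), which overlap, and those of the other 3 still lay apart. At 4000 UMIs, 14.2% of the 12074 genes had a higher share with intervals apart and 11.9% a lower one, beside 2 and 2 of the 8 members. For Itga4 (36.3% and 37.2%), Itgb1 (36.2% and 38.5%), Itga6 (20.1% and 22.3%) and Cd44 (40.0% and 40.3%) they overlapped.

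Without thinning the control cells held more UMIs and the shares moved: 58.9% and 53.3% for Cxcr4, 34.8% and 34.7% for Itgal, 12.9% and 5.04% for Robo4, and 82.5% and 67.0% for Selplg. For Cxcr4 and Itgal these orders go against the CPM, so none is taken from the unthinned shares. Over the 6 gates, thinned intervals lay apart for Itga6 in the stem triad gate (27.05% and 39.1%) and in the megakaryocyte gate (28.0% and 42.4%). They also lay apart for Itgal in the multipotent gate (8.87% and 13.9%), and for Cxcr4 (27.8% and 33.1%) and Robo4 (4.07% and 1.64%) in the lymphoid gate. These are 4 higher and 1 lower of 48 pairs, where 3.33% of the 65733 gene and gate pairs were higher and 2.22% lower.

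For comparison, the stromal cells of the MSC libraries were thinned to 1000 UMIs with the KLS cells. They are separate libraries, so their shares do not measure background in the KLS libraries. There a Cxcr4 UMI was in 1 of 385 control and 0 of 241 STAT5 KO stromal cells, against 6.95% and 8.06% of KLS cells. Itgal and Selplg were each in 1 and 0 stromal cells, and in 2.99% to 13.2% of KLS cells. The KLS shares of Cxcr4, Itgal and Selplg thus lay above the stromal ones. Robo4 was in 0 and 0 stromal cells, which allows shares of up to 0.779% and 1.24% at a limit of 3 counts. In KLS cells it was in 1.17% and 0.521%. The exact interval of the control stromal share ended at 0.954%, and that of the control KLS share ran from 0.820% to 1.62%. At this depth the Robo4 shares of KLS and stromal cells were thus not set apart in either genotype.

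By the likeness of levels over the 6 gates of both libraries (Pearson r of log2(CPM + 1) over 12 points, among 7373 genes with at least 2000 UMIs), the genes most like Cxcr4 were Rere (0.98), Ckap4 (0.98) and Psmb8 (0.98). Selplg was closest to Ctss, the cathepsin S gene (0.98), Tm6sf1 and Ramp1, and Robo4 to Pfdn5 (0.99), Klhl24 and Stxbp4. Among the genes most like Itgal were Ivns1abp (0.91) and Usf1. Itga4 was closest to Lpin2 (0.96), Prkab1 and Zfp800, and Itga6 to Stxbp5 (0.96), Fkbp9 and Pign. For Itgb1 they were Adgrl1 (0.92), Smyd2 and Unc119, and for Cd44 Egfl7 (0.90), Rps3 and Pan3. The points share 2 libraries and unequal depth, so these are descriptions. Among the members themselves the closest pair was Cxcr4 and Selplg (r 0.90), and the most opposed was Cxcr4 and Itga4 (r -0.77).

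The proteins that work with the members were read in 5 lists of 116 genes, of which 97 passed 100 UMIs. Of these 97, 6 were higher and 17 lower in STAT5 KO, beside 7.09% and 12.5% of all genes tested, and the median log2 ratio was -0.05, against -0.01 over all genes tested. Weighted to the control gate shares, 5 were higher and 12 lower. The lists are described one by one with their largest differences.

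Among integrin chains that partner with or resemble the members, 12 of 20 passed the minimum. Higher were Itgb3 (6.04 and 9.01 CPM, log2 0.58), the beta chain of the platelet fibrinogen receptor, and Itgb7 (23.4 and 29.4 CPM, log2 0.33), a second partner of alpha-4. Lower were Itgb5 (16.2 and 7.41 CPM, log2 -1.13), a partner of alpha-V, and Itga9 (4.89 and 3.86 CPM, log2 -0.34). The integrin activation list, which covers the cytoplasmic proteins that switch integrins on and link them to actin, had 18 of 20 tested. In it 0 were higher and 1 lower, Zyx (zyxin, 188 and 146 CPM, log2 -0.36).

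Of the CXCR4 signalling list, 26 of 28 were tested, with 0 higher and 2 lower. Dpp4, a surface protease that cuts CXCL12, was at 30.8 and 19.0 CPM (log2 -0.70, -0.80 to -0.59), and Prkcz, an atypical protein kinase C, at 2.15 and 1.64 CPM (log2 -0.39, -0.78 to -0.01). The median of the list was -0.02. Among genes that build selectin ligands, 13 of 14 were tested, with 1 higher and 2 lower. St3gal3 was higher (6.00 and 7.65 CPM, log2 0.35). St3gal6, a sialyltransferase that completes selectin-binding sugars, was lower (7.88 and 3.91 CPM, log2 -1.01), as was Tpst2 (60.5 and 48.1 CPM, log2 -0.33), which adds the sulfate that PSGL-1 needs to bind P-selectin.

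Of other homing and adhesion receptors, 28 passed the minimum, with 3 higher and 10 lower, beside 7.09% and 12.5% of all genes tested, and a median log2 ratio of -0.21. The lowest ratios were those of Emcn (endomucin, a sialomucin of stem cells and endothelium, 21.7 and 8.23 CPM, log2 -1.40), Jam3 (2.72 and 1.34 CPM, log2 -1.03), Ptger2 (a prostaglandin E2 receptor, 6.69 and 4.10 CPM, log2 -0.71) and Tek (the angiopoietin receptor TIE2, 6.49 and 4.10 CPM, log2 -0.66). Higher were Ccr2 (a chemokine receptor of monocytes and their precursors, 3.13 and 6.74 CPM, log2 1.11), Nrp1 (2.42 and 3.60 CPM, log2 0.57) and Podxl (1.51 and 2.15 CPM, log2 0.51). Weighted to the control gate shares, the median of this list was -0.15. The weighted log2 ratios were nearer 0 for Emcn (-1.28), Jam3 (-0.59), Tek (-0.37), Ccr2 (0.54) and Nrp1 (0.37). They were further from 0 for Ptger2 (-0.82) and Podxl (0.79).

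In the MSC libraries, stromal cells were those with at least 1% of UMIs from stromal genes and under 10% from hemoglobin, 400 in control and 250 in STAT5 KO (69.3% and 66.8% of kept cells). Itgb1 had 689 and 332 UMIs in these cells, levels of 455 and 317 CPM, and Cd44 had 165 and 87 UMIs, levels of 109 and 83.1 CPM. Both were lower past the call threshold (log2 -0.52, -0.71 to -0.33, and -0.39, -0.78 to -0.01), where 11.9% of 9725 genes were lower by the same rule and 6.15% higher. Over all kept cells of the MSC libraries the Cd44 ratio was log2 -0.22 (-0.58 to 0.13), within counting error, and that of Itgb1 was -0.48 (-0.67 to -0.29). Itga6 had 12 and 12 UMIs, and its ratio was within counting error. Cxcr4 and Itga4 had 1 and 0 UMIs each, Itgal 2 and 0, Selplg 5 and 0, and Robo4 0 and 0.

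Itgb1 was the member found at a higher level in stromal than in KLS cells, 4.14-fold in control and 2.64-fold in STAT5 KO. In control Cxcr4 was 122-fold higher in KLS cells (counting interval 21.9 to 4830), and in STAT5 KO at least 33.5-fold higher, taking 3 counts in the stromal library as its limit. Selplg was 45.2-fold higher in control KLS cells (19.3 to 139). In all kept cells of the MSC libraries Cxcr4 had 22 and 13 UMIs and Itga4 18 and 12, nearly all outside the stromal gate. Within stromal subsets, Itgb1 was at 587 and 449.7 CPM in cells with at least 1% of UMIs from Cxcl12 (log2 -0.38, -0.76 to -0.02), 422 and 359 CPM in other stromal cells (log2 -0.23, -0.48 to 0.02) and 163 and 161 CPM in cells rich in the cartilage genes Col2a1 and Acan. The last held 6 control and 29 STAT5 KO cells and had the lowest Itgb1 level in both libraries. Cd44 was within counting error in each of the 3 subsets.

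**Figure D4:**
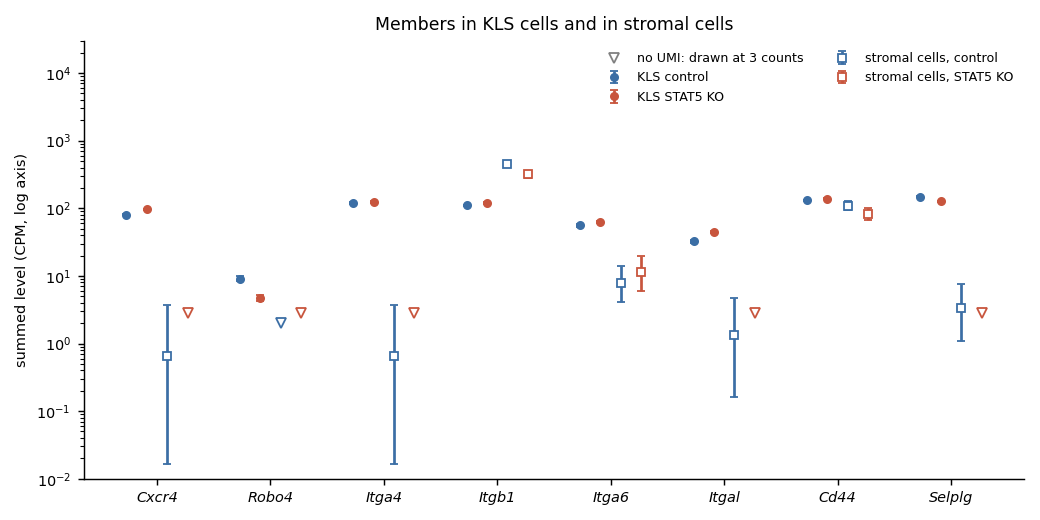
Summed level (CPM, vertical log axis) of each member in KLS cells (filled circles) and in stromal cells of the MSC libraries (open squares), control in blue and STAT5 KO in red, with 95% counting intervals. Open triangles mark 0 UMIs, drawn at the level of 3 counts. Itgb1 is the member that lies higher in stromal cells, and Cxcr4, Robo4, Itga4, Itgal and Selplg have 0 to 5 UMIs there.

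Stromal cells make several ligands of the members. Slit2 and Slit3, whose products bind other roundabout receptors, were listed with them. Of 16 listed, 12 passed 20 UMIs in stromal cells, with 2 higher and 7 lower in STAT5 KO, beside 6.15% and 11.9% of all genes there. Their median log2 ratio was -0.46, against -0.13 over all genes in stromal cells. Cxcl12, the CXCR4 ligand, was at 7797 and 4632 CPM (log2 -0.75, -0.80 to -0.70). Vcam1, the alpha-4 beta-1 ligand, was at 443 and 342 CPM (log2 -0.37). Cells with at least 1% of UMIs from Cxcl12 were 17.5% of the kept cells of the control MSC library (14.5% to 20.9%) and 13.9% of the STAT5 KO one (10.6% to 17.8%). Within those cells, picked by their Cxcl12 share, Cxcl12 was at 28831 and 24723 CPM (log2 -0.22), under the call threshold. Vcam1 was at 1590 and 1810 CPM there, within counting error. In other stromal cells Cxcl12 was higher in STAT5 KO (307 and 421 CPM, log2 0.46). These cells, too, were picked by their Cxcl12 share, which was under 1%. Cartilage-rich cells had 0 and 2 Cxcl12 UMIs. They held 61425 of 1515731 control and 309939 of 1047509 STAT5 KO stromal UMIs. The part of the subset shares in the ligand ratios was not tested.

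The 3 lowest ratios were those of Has1, a hyaluronan synthase that makes the CD44 ligand (208 and 86.9 CPM, log2 -1.26), Lamc1, a laminin chain (209 and 117 CPM, log2 -0.83), and Slit3 (92.4 and 52.5 CPM, log2 -0.81). Spp1, osteopontin, was higher (840 and 2180 CPM, log2 1.38), and 91.5% of its UMIs in STAT5 KO lay in 10 cells, 1134 of 2284 UMIs in 1 cell, against 40.8% in the top 10 of control. In cells with at least 1% of UMIs from Cxcl12, Spp1 was lower in STAT5 KO (2697 and 1376 CPM, log2 -0.97). In other stromal cells it was higher (188 and 3671 CPM, log2 4.29). Fn1, fibronectin, was higher (1649 and 2348 CPM, log2 0.51). Of its UMIs in STAT5 KO, 48.0% lay in 10 cells, against 26.1% in the top 10 of control. Within the cartilage-rich cells, 6 in control and 29 in STAT5 KO, Fn1 was at 2898 and 4188 CPM. In other stromal cells it was at 2184 and 2102 CPM, within counting error. Selp and Sele, the vessel selectins, had 0 UMIs in both libraries, and Icam1, a ligand of LFA-1, was at 327 and 269 CPM, under the call threshold.

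**Figure D5:**
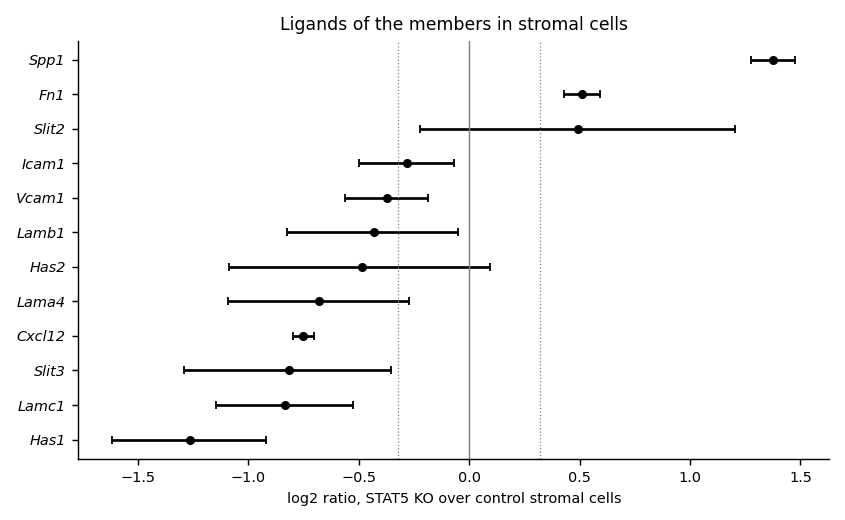
Log2 ratio of STAT5 KO over control stromal cells (horizontal axis) for the 12 ligands with at least 20 UMIs, with 95% counting intervals and dotted lines at the call threshold. Spp1 and Fn1 are higher and Has1, Lamc1, Slit3, Cxcl12, Lama4, Lamb1 and Vcam1 lower, while the intervals of Slit2 and Has2 include 0 and Icam1 lies inside the dotted lines.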

How the data were processed

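The authors deposited raw UMI counts per gene and cell barcode for 4 libraries, made with Cell Ranger on builds GRCm38 and mm10 per the submitters' processing notes (software version 3.1.0 per the file headers). Its settings and cell calling are not given in the sources used here. Barcodes under 200 genes, or over 10% mitochondrial UMIs, were dropped. Scrublet (in scanpy 1.11.5) ranked doublets, and the top scores were left out at 0.8% per 1000 barcodes, because its own threshold marked 0 or 1 barcodes per library. Barcodes with more UMIs in another library were left out: 388 and 281 in the control and STAT5 KO KLS libraries, 33 and 17 in the MSC libraries. Library totals were 55138419, 82466835, 1874023 and 1270763 UMIs in that order. UMIs were summed per library and gate and scaled to CPM, with exact Poisson, conditional binomial and Clopper-Pearson 95% intervals from scipy 1.17.1. A 0 was given the limit of 3 counts. Ratio and interval code was tested on simulated data. TMM factors came from edgeR 4.0.16, and gene positions from GENCODE M21. Alternatives changed cell filters, scaling, depth, gates and thresholds. The members and lists were chosen with earlier results of these data known. Named genes were the members, up to 4 largest changes each way past the call threshold per list, and the 3 most alike genes per member, of which 1 is not reported here. Others were named after their values were seen: Slamf1, Vwf, Itgb2, Vcam1, Icam1, Selp, Sele and the markers of other cell types.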

Additional observations from a re-analysis of the deposited data

Results flagged for a closer look

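For 2 members the ratio of STAT5 KO to control lay on opposite sides of 1 in the KLS and in the stromal libraries, each beyond counting error. Itgb1 had a log2 ratio of -0.52 in stromal cells and 0.13 in KLS cells. Cd44 had a log2 ratio of -0.39 in stromal cells and 0.07 in KLS cells. With 1 library per group the difference between the populations was not tested. For Cd44 the KLS ratio was 1.05-fold, and its stromal interval ended at -0.01, close to 0. Within stromal subsets the Itgb1 ratio was -0.38 in cells with at least 1% of UMIs from Cxcl12, -0.23 in other stromal cells and -0.01 in cartilage-rich cells. The Itgb1 ratios of other stromal and cartilage-rich cells, and those of Cd44 in each subset, were within counting error. The KLS side of the contrast moved with depth. Among cells of 8000 to 16000 UMIs the KLS ratio was within counting error for Itgb1 (0.08, -0.01 to 0.16) and Cd44 (0.04, -0.04 to 0.12), and among cells of 4000 to 8000 UMIs Cd44 was below control (-0.16, -0.30 to -0.01), as in stromal cells.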

How the results depend on the processing

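Of 489 values recomputed for 82 results, 445 stayed within the main interval or within 1.5 times the main count, 44 moved and 0 called ratios changed sign. The 2 settings for gates that were added after the data were seen, a stem gate without Procr and cells of 8000 to 16000 UMIs, gave Itgal log2 0.46 and 0.63 in the multipotent gate. Robo4 ranged from log2 -1.11 to -0.37 and Itgal from 0.38 to 0.50, the values nearest 0 being those with a pseudocount of 10 CPM. Members higher in KLS cells numbered 2 in cells of 8000 to 16000 UMIs (Cxcr4 added) and 0 at a fold of 1.5. Members with a higher share and intervals apart numbered 1 when thinned to 2000 UMIs and 0 unthinned, where 7 had a lower share, control cells being deeper. Of stromal members, 1 was lower over all kept MSC cells and 1 with the barcodes larger elsewhere kept. At a fold of 1.5, 1 of the 97 genes tested over the 5 lists was higher and 9 lower. Over the scalings the median of all genes lay between log2 -0.04 and 0.02. No paired analysis was possible because each group has 1 library and no replicate numbers. Depth limits Robo4 most, with 365 to 464 UMIs per KLS library, and the myeloid and erythroid gates of control, with 45 and 43 cells.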

Other observations

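Some STAT5 KO KLS cells held Stat5a or Stat5b UMIs, and the members were read in them apart, a split chosen after the data were seen. In the multipotent gate, Itgal was at 42.5 CPM in the 2880 STAT5 KO cells without a Stat5 UMI and at 20.9 CPM (15.7 to 27.2) in the 248 with at least 1, beside 26.1 CPM in control. In the stem triad gate the levels were 33.5 CPM in 220 cells and 13.95 CPM (6.69 to 25.7) in 73 cells, beside 14.7 CPM in control. The cells with Stat5 UMIs thus had Itgal levels whose intervals held, in both gates, the control level.

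Robo4 and Cxcr4 were read in the same cells. Robo4 in the multipotent gate was at 5.48 CPM (4.63 to 6.44) without and 6.45 CPM (3.76 to 10.3) with Stat5 UMIs, beside 8.19 CPM in control, an interval that holds both other levels. In the stem triad gate Robo4 was at 12.0 CPM without and 16.7 CPM (8.65 to 29.2) with Stat5 UMIs, beside 17.3 CPM in control. That interval, too, holds both other levels. Cxcr4 in the multipotent gate was at 87.3 CPM without and 64.9 CPM (55.5 to 75.4) with Stat5 UMIs, beside 72.8 CPM in control. In the stem triad gate Cxcr4 was at 83.0 and 44.7 CPM (30.5 to 63.0), the latter interval lying below the 69.1 CPM of control.

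The other members were read first in the multipotent gate. Itga4 was at 124 and 109 CPM (97.0 to 123), beside 115 CPM in control, and Itgb1 at 125 and 147 CPM, beside 117 CPM. Itga6 was at 73.0 and 108.5 CPM, beside 66.5 CPM in control, and Selplg at 124 and 81.6 CPM, beside 135 CPM. Cd44 was at 128 and 86.5 CPM, beside 117 CPM. For Itgb1, Itga6, Selplg and Cd44 the cells with Stat5 UMIs were thus further from control than those without. In the stem triad gate Itga6 was at 102 CPM without and 149 CPM (122 to 180) with Stat5 UMIs, beside 80.3 CPM in control. There Itga4 was at 124 and 93.5 CPM, beside 121 CPM in control, and Itgb1 at 118 and 137 CPM, beside 112 CPM. Selplg was at 111 and 85.1 CPM, beside 121 CPM in control, and Cd44 at 134 and 92.1 CPM, beside 116 CPM. All cells come from 1 library, cells with a Stat5 UMI were deeper in the multipotent gate (median 9474.5 against 8152 UMIs) and shallower in the stem triad gate (7975 against 10483.5 UMIs), and whether the groups differ in cell type was not tested.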
